A study of Homo sapiens with 6 samples.

Results

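The nuclear genes for the subunits of the mitochondrial respiratory chain were examined in KO52, a cell line from acute myeloid leukemia with mutations on both alleles of CEBPA. The genes were taken by symbol: protein-coding nuclear genes whose symbols start with NDUFA, NDUFB, NDUFC, NDUFS, NDUFV, UQCR, COX4, COX5, COX6, COX7, COX8 or ATP5, together with SDHA, SDHB, SDHC, SDHD and CYC1, without the NDUFAF assembly factors. This gave 92 of the 60612 gene IDs counted, and 83 of the 92 had enough counts to be tested, among 15395 genes tested in all. By symbol, 40 belonged to complex I (39 tested), 4 to complex II (all tested), 10 to complex III (all tested), 17 to complex IV (11 tested) and 21 to complex V (19 tested). No measured value is part of this rule.

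RNA was measured in 6 libraries, 2 for each of 3 groups of cells that carried a doxycycline-inducible lentiviral vector. According to the paper, transduced cells were treated with doxycycline and then sorted for the GFP that the vector expresses. No group is described as left without doxycycline, so EV is not an untreated control. The dnCEBP group expressed a dominant negative C/EBP peptide and the dnFOS group a dominant negative FOS peptide. Both peptides pair with the transcription factors of their family and keep the pair off DNA. The EV group carried the empty vector, with GFP but no peptide. All groups share the KO52 background, so the controls are CEBPA mutant as well, and nothing in the sources used here says that the 2 replicates of a group were separate inductions. The p-values measure the spread between these libraries, which may be technical.

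The respiratory chain lies in the inner mitochondrial membrane. Complex I takes electrons from NADH and complex II from succinate. Both hand them to ubiquinone, from which complex III passes them to cytochrome c and complex IV to oxygen. Complexes I, III and IV pump protons as they work, and complex V, the ATP synthase, makes ATP from the return of those protons. Mitochondrial DNA encodes some subunits of every complex except complex II, and nuclear genes encode all the others. Leukemic blasts are known to depend on this pathway for much of their ATP.

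Total counts were 24479677 and 22056069 in EV, 27663179 and 21681121 in dnCEBP, against 14583615 and 9862994 in dnFOS. Single values are therefore least precise in dnFOS. The 92 genes together held 0.755% and 0.730% of the counts in EV, 0.754% and 0.774% in dnCEBP, against 0.729% and 0.673% in dnFOS. Markers of myeloid blasts such as PTPRC, CD33, CD34 and CEBPA were counted in every library, and 1 of the 10 on that list, ELANE, was too low to test. Of the 9 tested, 3 were called lower in dnFOS than in EV, by log2 fold changes of -0.33 (PTPRC), -0.56 (MPO) and -0.44 (LYZ). CEBPA was called higher there (0.30). In dnCEBP 2 were called lower, MPO (-1.89) and CSF3R (-0.50). The part of these changes in the results was not tested. Of the 5 fibroblast markers none was tested, the sum of their levels was at most 0.666 CPM in any library (CPM, a count relative to the scaled size of its library), and DCN and LUM were at 0. The sums of the markers of other cells were 92.2 to 150.3 CPM for 5 T cell genes, nearly all of it CD3D, 67.3 to 87.6 for 5 epithelial genes and 11.3 to 19.5 for 5 B cell genes, and of 5 erythroid genes HBB had the most, 6 to 67 counts, with MS4A1, PAX5, HBA2 and CDH1 at 0. CD3D, KRT18 and KRT8 were lower in dnFOS than in EV, by 0.28, 0.43 and 0.80 on the log2 scale, and their part in the results was not tested. Genes are called higher or lower here where edgeR's quasi-likelihood test gave a Benjamini-Hochberg adjusted p under 0.05 over all 15395 genes.

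Levels differed widely between subunits of 1 complex. Expressed as CPM per kilobase of annotated exon and averaged over all 6 libraries, complex I ran from NDUFS5, a small accessory subunit, at 217 to NDUFA4L2, a relative of NDUFA4, at 0.461. Complex II ran from the iron-sulfur subunit SDHB at 29.3 to the flavoprotein SDHA at 1.94. In complex III the hinge protein gene UQCRH stood at 237 and its retrocopy UQCRHL at 1.16. In complex IV COX6B1 stood highest at 215 and COX7A2L lowest at 16.7, and in complex V the catalytic beta subunit ATP5F1B stood at 169 and ATP5S at 0.923. The length is that of all annotated exons together, so genes with long, little used exons are placed too low. Reads shared with near copies may have been dropped or split, which makes SDHA, UQCRH and UQCRHL uncertain.

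**Figure D1:**
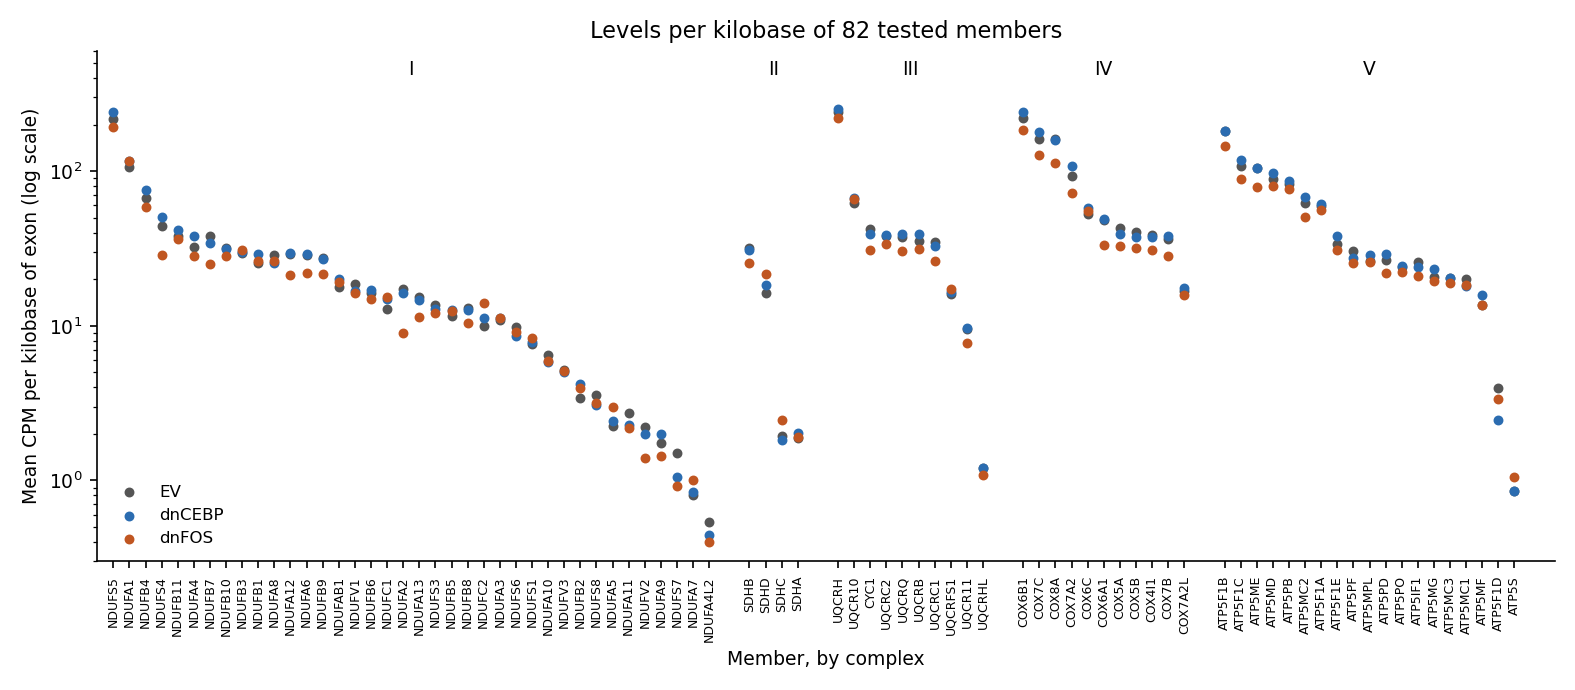
Mean level per kilobase of exon of 82 of the 83 tested genes in EV (grey), dnCEBP (blue) and dnFOS (orange), on a log axis and ordered within each complex. The 3 groups lie close together for most genes, while NDUFA2, NDUFS4 and COX6A1 show dnFOS below the other groups.

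The untested genes were mostly tissue-restricted isoforms. COX4I2, COX6A2, COX6B2 and COX7A1, the alternatives to COX4I1, COX6A1, COX6B1 and COX7A2 known from lung, heart, muscle or testis, had 0 counts in all 6 libraries. A count of 0 allows up to 3 counts, or 0.108 to 0.304 CPM depending on the library, for counting error only. COX7B2 had 2 counts in dnCEBP replicate 1 and COX8C had 2 in EV replicate 2, and each had 0 elsewhere. The readthrough genes NDUFC2-KCTD14 and ATP5MF-PTCD1 had at most 1 and 3 counts in a library, and ATP5MGL at most 4. The ubiquitous isoform was thus the expressed one in each of these pairs of complex IV genes. In complex I, NDUFA4L2 was tested but low, at 1.13 and 1.88 CPM in EV, 1.48 and 1.01 in dnCEBP, against 1.56 and 0.680 in dnFOS. NDUFA4, a gene named for complex I whose product is found in complex IV, had 117 and 113 CPM in EV.

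The comparison of dnCEBP with EV asks what a block of C/EBP binding does to these genes. None of the 83 was called higher and none was called lower by edgeR, against 0.624% of all genes tested called higher and 0.448% called lower. DESeq2 and limma-voom also called 0 in either direction. At an unadjusted p under 0.05 in the edgeR test there were 5 of the 83, a smaller share than the 1835 of all 15395 genes. The 5 were ATP5F1D, NDUFS7, NDUFA4, NDUFB2 and COX7A2. Both dnCEBP libraries lay above both EV libraries for 21 genes and below them for 8, against 21.9% and 20.9% of all genes. The median log2 fold change was 0.033, with 50 positive and 33 negative values, beside -0.002 over all genes.

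ATP5F1D, the delta subunit in the central stalk of ATP synthase, gave the smallest p in dnCEBP. Its level was 9.27 and 8.56 CPM in EV, 6.07 and 5.02 in dnCEBP, against 8.20 and 6.86 in dnFOS. The dnCEBP libraries were below all the others, with a log2 fold change of -0.68 ± 0.19 (SE) against EV and an adjusted p of 0.0870. NDUFS7, a core subunit that carries an iron-sulfur cluster, followed with 12.8 and 9.93 CPM in EV and 9.58 and 6.28 in dnCEBP, a log2 fold change of -0.51 ± 0.20 and an adjusted p of 0.266. Neither difference passed the test. The value of NDUFS7 ran from -0.86 to -0.25 as single libraries were left out, and it was called lower only without dnCEBP replicate 1, the higher library of its group.

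The comparison of dnFOS with EV asks the same of AP-1. Of the 83 genes, 23 (27.7%) were called lower and 3 higher, against 7.76% of all genes called lower and 7.24% called higher. Both dnFOS libraries lay below both EV libraries for 50 genes and above them for 12, against 28.4% and 28.3% of all genes. The median log2 fold change was -0.17, with 63 negative and 20 positive values, beside 0.00 over all genes. In bulk RNA, fewer cells with a transcript and less of it per cell cannot be told apart. The genes called lower fell by 0.26 to 0.94 on the log2 scale. The shares by complex were unequal in these counts: 8 of 11 in complex IV, 8 of 39 in complex I, 4 of 19 in complex V, 2 of 10 in complex III and 1 of 4 in complex II, with medians of -0.34, -0.17, -0.13, -0.17 and 0.18. The differences between complexes were not tested. As single libraries were left out, the medians ran from -0.39 to -0.27 in complex IV and from -0.24 to -0.12 in complex I. They ran from -0.19 to -0.12 in complex V, -0.26 to -0.12 in complex III and 0.08 to 0.23 in complex II. The counts called lower changed as well.

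The count of 23 rested on particular libraries. It fell when EV replicate 1 was left out, and when dnFOS replicate 2, the shallowest library, was left out. The share of all genes called lower fell as well in both fits. As single libraries were left out, the median of the 83 genes ran from -0.25 to -0.12. Scaling by library totals alone, which moved the median of all genes by 0.10 to the high side, left 12 lower (14.5%). Of all genes 4.39% were then called lower. The calls lost with library totals alone included ATP5F1B, ATP5F1C, ATP5MC2, ATP5ME, COX4I1, COX6B1, COX7B, NDUFA6, NDUFS7 and SDHB. With limma-voom those on NDUFA6 and NDUFS7 were among the calls lost. The 4 genes called lower under all 17 other settings were NDUFA2, NDUFS4, COX6A1 and COX7A2. The median of the 83 genes was negative under each of these settings. Taking, for each gene, the deviation of each library from the gene's mean log2 CPM, the median over the 83 genes was 0.076 and 0.042 in EV, 0.080 and 0.088 in dnCEBP, against -0.074 and -0.187 in dnFOS. Both dnFOS libraries were thus below the other 4, with replicate 2 further down.

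**Figure D2:**
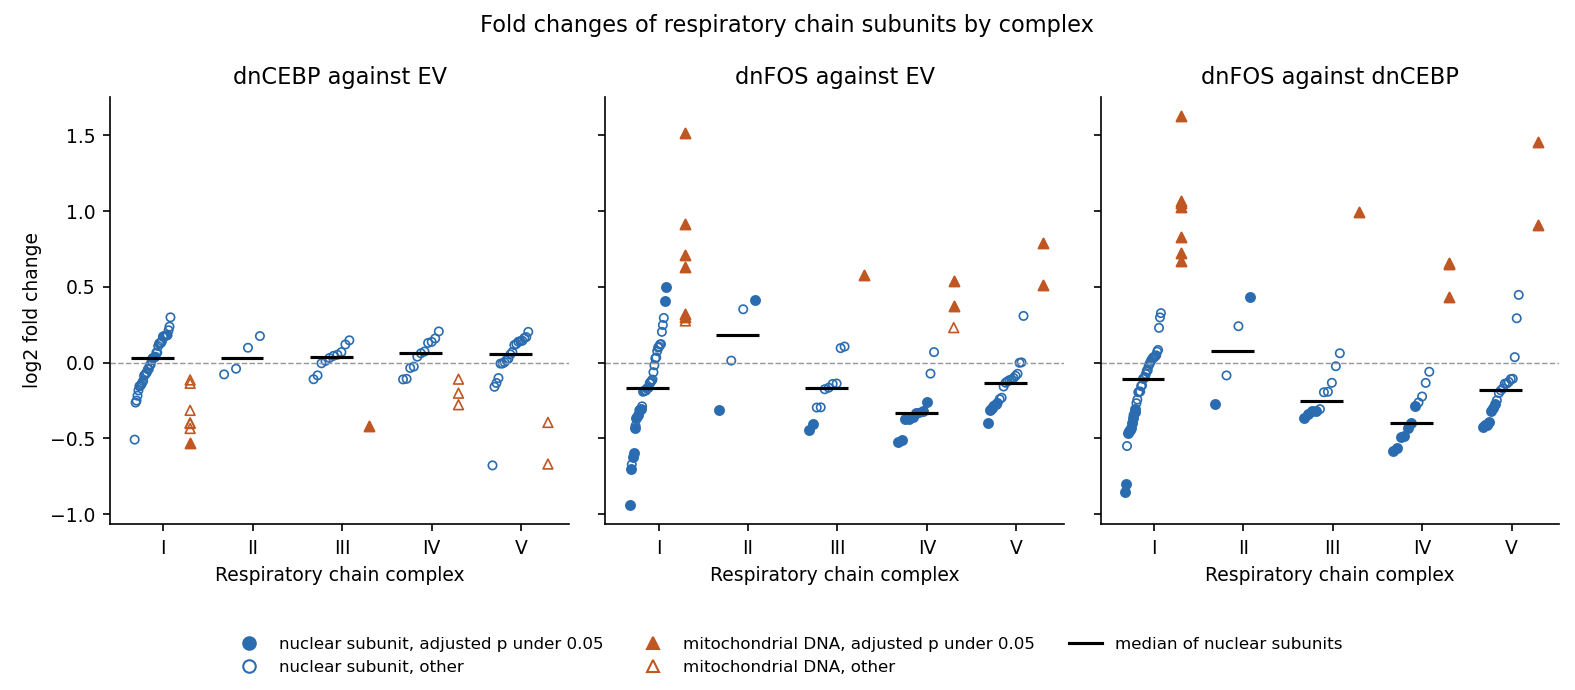
Fitted log2 fold change of each nuclear subunit (circles) and each subunit from mitochondrial DNA (triangles) by complex, for the 3 comparisons, with filled symbols at an adjusted p under 0.05 and a bar at the median of the nuclear subunits. In dnFOS against EV the nuclear genes of complex IV sit lowest as a group, at a median of -0.34, and the triangles lie above 0.

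Promoter sequence was available for 66 of the 83 tested genes, 19 of them among the 23 called lower, from RefSeq on GRCh38, and the 250 bases before each start were searched on both strands. The AP-1 word TGANTCA stood in 3 of 66 (4.55%), against 6.57% of all 35116 promoters, and in 1 of the 19. The C/EBP word TTNNGNAA stood in 20 (30.3%) against 33.2%, and the CRE word TGACGTCA in 4 (6.06%) against 1.65%. Words of factors known for mitochondrial genes were more frequent than in all promoters: the NRF1 word GCATGCGC stood in 12 (18.2%) against 2.63%, and the ETS word CCGGAAG in 17 (25.8%) against 8.52%. The YY1 word AAGATGGC stood in 1 (1.52%) against 1.36%. The NRF1 word was present in 7 of the 19 genes called lower and in 5 of the other 47. The ETS word was present in 5 of 19 and 12 of 47. Among the other 47, SDHD was called higher in dnFOS and holds the NRF1 word, and NDUFA5 was called higher and does not. These differences were not tested, and the 35116 promoters are not limited to genes tested here. ETS and C/EBP words can share bases. These are matches of letters only, with no measure of binding.

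Exon-free stretches of the promoters of 4 genes called lower are shown to set the word of the blocked family beside those of other factors, 5′ to 3′ on the strand of the gene, with each matched word in capitals. COX7C (chr5:86617691-86617903, plus strand) was the 1 gene of the 19 with the AP-1 word, which begins 190 bases before the start. COX6A1 (chr12:120437863-120438089, plus strand) holds the NRF1 word at 218 and, on the other strand, at 174 bases before the start. NDUFS4 (chr5:53560389-53560632, plus strand) holds the C/EBP word at 70 bases before the start and none of the other words in the stretch. SDHB (chr1:17054171-17054282, minus strand) holds the NRF1 word at 200 bases before the start. Between these stretches and the starts lie further words that are not printed. They are the C/EBP word at 32 bases in COX7C and the ETS word at 16 bases in COX6A1 and at 128 bases in SDHB.
COX7C: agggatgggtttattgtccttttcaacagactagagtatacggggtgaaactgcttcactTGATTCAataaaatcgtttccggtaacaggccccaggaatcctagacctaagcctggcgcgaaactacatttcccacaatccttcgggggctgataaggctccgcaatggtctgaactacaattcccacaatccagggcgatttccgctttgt
COX6A1: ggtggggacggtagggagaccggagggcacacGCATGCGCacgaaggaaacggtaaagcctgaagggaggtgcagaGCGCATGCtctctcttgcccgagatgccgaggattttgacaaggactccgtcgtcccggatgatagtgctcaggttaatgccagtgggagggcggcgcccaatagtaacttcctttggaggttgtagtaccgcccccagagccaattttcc
NDUFS4: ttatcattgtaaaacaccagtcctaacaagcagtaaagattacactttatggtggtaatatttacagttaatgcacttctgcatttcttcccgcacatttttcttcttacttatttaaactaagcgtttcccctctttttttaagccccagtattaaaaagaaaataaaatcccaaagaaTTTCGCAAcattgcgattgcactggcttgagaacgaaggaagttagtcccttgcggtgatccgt
SDHB: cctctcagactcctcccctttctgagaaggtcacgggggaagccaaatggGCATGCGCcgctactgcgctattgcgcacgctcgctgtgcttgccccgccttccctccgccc

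Complex IV, cytochrome c oxidase, had the highest share called lower in dnFOS. COX6A1 (ENSG00000111775, chr12:120438090-120440742, plus strand on GRCh38), the ubiquitous isoform of subunit VIa, stood at 67.8 and 61.2 CPM in EV, 66.4 and 66.1 in dnCEBP, against 43.4 and 46.5 in dnFOS. The dnFOS libraries were separate from the other 4, which overlapped each other. COX6A1 was 1.44-fold lower in dnFOS than in EV, with a log2 fold change of -0.52 ± 0.098 and an adjusted p of 0.000481. COX7A2 (ENSG00000112695, chr6:75237675-75250323, minus strand), the ubiquitous isoform of subunit VIIa, had 182 and 178 CPM in EV, 192 and 222 in dnCEBP, against 141 and 136 in dnFOS. It was 1.30-fold lower than in EV, at -0.38 ± 0.088 with an adjusted p of 0.00381.

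COX7C, another small subunit, was the gene of complex IV with the most counts, at 321 and 318 CPM in EV, 348 and 366 in dnCEBP, against 256 and 251 in dnFOS. Its replicates were close to each other, and it fell by 0.34 on the log2 scale (SE 0.083, adjusted p 0.00586). Without EV replicate 1 the adjusted p of COX7C was 0.0797 at nearly the same fold change, -0.33. COX8A, the ubiquitous isoform of subunit VIII, had 89.5 and 74.8 CPM in EV, 82.7 and 78.5 in dnCEBP, against 64.3 and 50.4 in dnFOS, a fall of 0.51 (SE 0.11, adjusted p 0.00149). The adjusted p of COX8A was 0.0585 without EV replicate 1.

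COX4I1, the regulatory subunit that binds ATP, fell by 0.32 on the log2 scale, COX5A by 0.38, COX7B by 0.36 and COX6B1, which faces the intermembrane space, by 0.26. COX4I1 had 190.2 and 178 CPM in EV, 178 and 181 in dnCEBP, against 154 and 140.1 in dnFOS. COX7B lost the call without EV replicate 1, without dnFOS replicate 2 and with library totals alone. COX4I1 and COX5A lost it without EV replicate 1 (adjusted p of 0.161 and 0.0813) and without dnFOS replicate 2 (0.103 and 0.0655). COX6B1 was not called without EV replicate 1 (0.458), dnFOS replicate 1 (0.0659) or dnFOS replicate 2 (0.115). COX5B fell short of the threshold at -0.33 ± 0.12 (adjusted p 0.0569). COX6C, at 0.07 ± 0.088, and COX7A2L, which takes part in joining complexes III and IV into supercomplexes, at -0.07 ± 0.088, were not called, with adjusted p of 0.662 and 0.643.

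**Figure D3:**
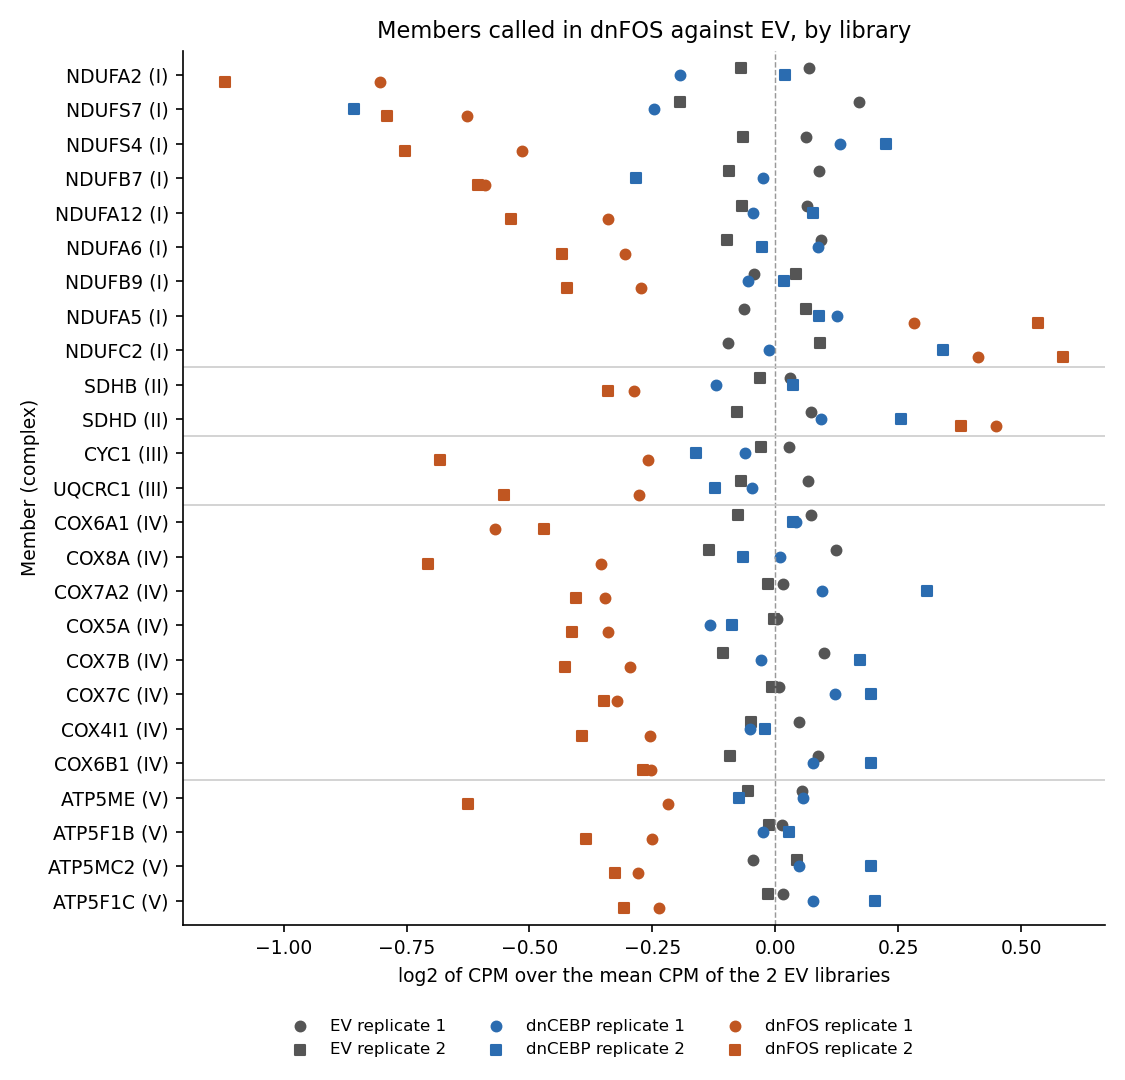
Level of 25 of the 26 genes called in dnFOS against EV in each library, as log2 of CPM over the mean of the 2 EV libraries, grouped by complex (in parentheses). The orange dnFOS points lie left of both grey EV points for the 22 genes shown that were called lower and right of them for NDUFA5, NDUFC2 and SDHD, and the blue dnCEBP points lie mostly near the EV points, with NDUFS7 in dnCEBP replicate 2 as low as in dnFOS.

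Complex I, the NADH dehydrogenase, held the largest falls. NDUFA2 (ENSG00000131495, chr5:140638740-140647785, minus strand), an accessory subunit of the arm that reaches into the matrix, stood at 27.1 and 24.6 CPM in EV, 22.6 and 26.2 in dnCEBP, against 14.8 and 11.9 in dnFOS. Both dnFOS libraries were below all the others, 1.92-fold lower than EV on average, with a log2 fold change of -0.94 ± 0.15 and an adjusted p of 5.12e-05. NDUFS4 (ENSG00000164258, chr5:53560633-53683340, plus strand), an accessory subunit whose loss causes Leigh syndrome, had 54.4 and 49.8 CPM in EV, 57.1 and 60.9 in dnCEBP, against 36.5 and 30.9 in dnFOS. It was 1.54-fold lower in dnFOS than in EV, at -0.62 ± 0.11 with an adjusted p of 0.000232, and the dnFOS libraries again stood alone.

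NDUFS7 fell by 0.70 on the log2 scale (SE 0.21, adjusted p 0.0229), from the EV values given above to 7.36 and 6.57 CPM in dnFOS, a range that overlapped the dnCEBP libraries. Its call was lost without EV replicate 1 (0.240) and without dnFOS replicate 2 (0.133). NDUFB7, an accessory subunit of the membrane arm, had 21.6 and 19.0 CPM in EV and 13.5 and 13.3 in dnFOS, a fall of 0.60 (SE 0.15, adjusted p 0.00688), and an adjusted p of 0.100 without EV replicate 1. Also called lower were NDUFA12, NDUFA6 and NDUFB9, which fell by 0.43, 0.37 and 0.34. All of these calls were lost without dnFOS replicate 2, those on NDUFA12 and NDUFA6 also without EV replicate 1, that on NDUFA6 also with library totals alone or limma-voom, and that on NDUFB9 also without EV replicate 2. Of the 7 core subunits, which carry the electron path, 2 were called lower and none higher, with a median of -0.19. Of the 32 other tested genes named for complex I, 6 were called lower and 2 higher, with a median of -0.13. Most of the 32 encode accessory subunits around the core, but NDUFA4 and its relative NDUFA4L2 are counted among them. NDUFS1, the largest nuclear core subunit, had 96.2 and 90.7 CPM in EV and 104 and 99.6 in dnFOS (0.12 ± 0.085, adjusted p 0.376). The flavin-carrying NDUFV1 gave -0.19 ± 0.10 (adjusted p 0.231).

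The 2 complex I genes called higher were NDUFC2 and NDUFA5. NDUFC2 (ENSG00000151366, chr11:78068304-78080219, minus strand), of the membrane arm, had 24.7 and 28.1 CPM in EV, 26.1 and 33.4 in dnCEBP, against 35.1 and 39.5 in dnFOS. It rose 1.41-fold (log2 0.50 ± 0.13, adjusted p 0.00873), a call lost without EV replicate 1 (0.118) and without dnFOS replicate 2 (0.0830). NDUFA5, of the matrix arm, had 21.3 and 23.2 CPM in EV, 24.3 and 23.7 in dnCEBP, against 27.0 and 32.2 in dnFOS, a rise of 0.41 ± 0.13 (adjusted p 0.0313). The longest transcript of NDUFA5 holds the least GC of these genes. With the trend on GC content and length removed, the log2 fold change of NDUFA5 was 0.05 (adjusted p 0.820). NDUFA5 was not called with DESeq2 either. Its call was also lost without EV replicate 1 (0.232), EV replicate 2 (0.0705) or dnFOS replicate 2 (0.318).

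Complex II, succinate dehydrogenase, split. SDHB (ENSG00000117118, chr1:17018722-17054170, minus strand), which holds the iron-sulfur clusters, had 79.6 and 76.3 CPM in EV, 71.7 and 79.9 in dnCEBP, against 63.8 and 61.6 in dnFOS, and fell by 0.31 (SE 0.092, adjusted p 0.0196). The membrane anchor SDHD (ENSG00000204370, chr11:112086773-112120013, plus strand) had 48.4 and 43.6 CPM in EV, 49.1 and 54.9 in dnCEBP, against 62.8 and 59.7 in dnFOS, a rise of 0.41 ± 0.10 (adjusted p 0.00582). The second anchor, SDHC, moved in the same direction, from 25.4 and 29.4 CPM in EV to 32.6 and 37.6 in dnFOS, without passing the test (0.35 ± 0.13, adjusted p 0.0594). SDHA, which binds FAD and oxidises succinate, gave 0.01 ± 0.16. The call on SDHB was lost without EV replicate 1 (0.178), EV replicate 2 (0.0512) or dnFOS replicate 2 (0.118), and that on SDHD without EV replicate 2 (0.113).

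In complex III, 2 of 10 were called lower and none higher. CYC1, the cytochrome c1 heme protein, had 85.0 and 81.7 CPM in EV, 79.9 and 74.5 in dnCEBP, against 69.6 and 51.9 in dnFOS, a fall of 0.45 (SE 0.11, adjusted p 0.00408). UQCRC1, a core protein on the matrix side, had 118 and 107 CPM in EV and 92.9 and 76.8 in dnFOS, a fall of 0.40 (SE 0.093, adjusted p 0.00341). For both, dnFOS replicate 2 was well below replicate 1, and without it the adjusted p of CYC1 was 0.163 and that of UQCRC1 was 0.102. UQCRC1 was also not called without EV replicate 1 (0.0748). The Rieske iron-sulfur protein gene UQCRFS1 had 57.9 and 54.3 CPM in EV and 60.5 and 60.2 in dnFOS (0.11 ± 0.095, adjusted p 0.511). UQCRH gave -0.14 ± 0.091 and its retrocopy UQCRHL -0.14 ± 0.32.

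In complex V, 4 of 19 were called lower and none higher. The catalytic subunit ATP5F1B had 424 and 416 CPM in EV, 413 and 428 in dnCEBP, against 353 and 322 in dnFOS, a fall of 0.31 (SE 0.084, adjusted p 0.0104). The central stalk subunit ATP5F1C fell by 0.27 (SE 0.084, adjusted p 0.0278) and the membrane subunit ATP5ME by 0.40 (SE 0.10, adjusted p 0.00814). ATP5F1A, the alpha subunit that alternates with beta in the head, had 670.0 and 622 CPM in EV and 660.1 and 567 in dnFOS, which overlap (-0.07 ± 0.089, adjusted p 0.640). The call on ATP5F1B was lost without EV replicate 1 (0.118) or dnFOS replicate 2 (0.141). Each of the 3 genes ATP5MC1, ATP5MC2 and ATP5MC3 encodes the same mature subunit c of the rotor ring. ATP5MC2, the most counted of them, fell by 0.30 (SE 0.085, adjusted p 0.0153), from 242 and 257 CPM to 205 and 199. ATP5MC1 gave -0.12 ± 0.11 and ATP5MC3 -0.12 ± 0.084, with adjusted p of 0.501 and 0.397. Calls on ATP5F1C and ATP5MC2 were lost without EV replicate 1 (0.206 and 0.0614), EV replicate 2 (0.0863 and 0.129) or dnFOS replicate 2 (0.152 and 0.0771). The inhibitor ATP5IF1, which stops the enzyme from running backward, gave -0.29 ± 0.11 (adjusted p 0.0752), and ATP5S gave 0.31 ± 0.17. The call on ATP5ME was lost without EV replicate 1, without dnFOS replicate 2, with library totals alone and with the trend on GC and length removed.

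**Figure D4:**
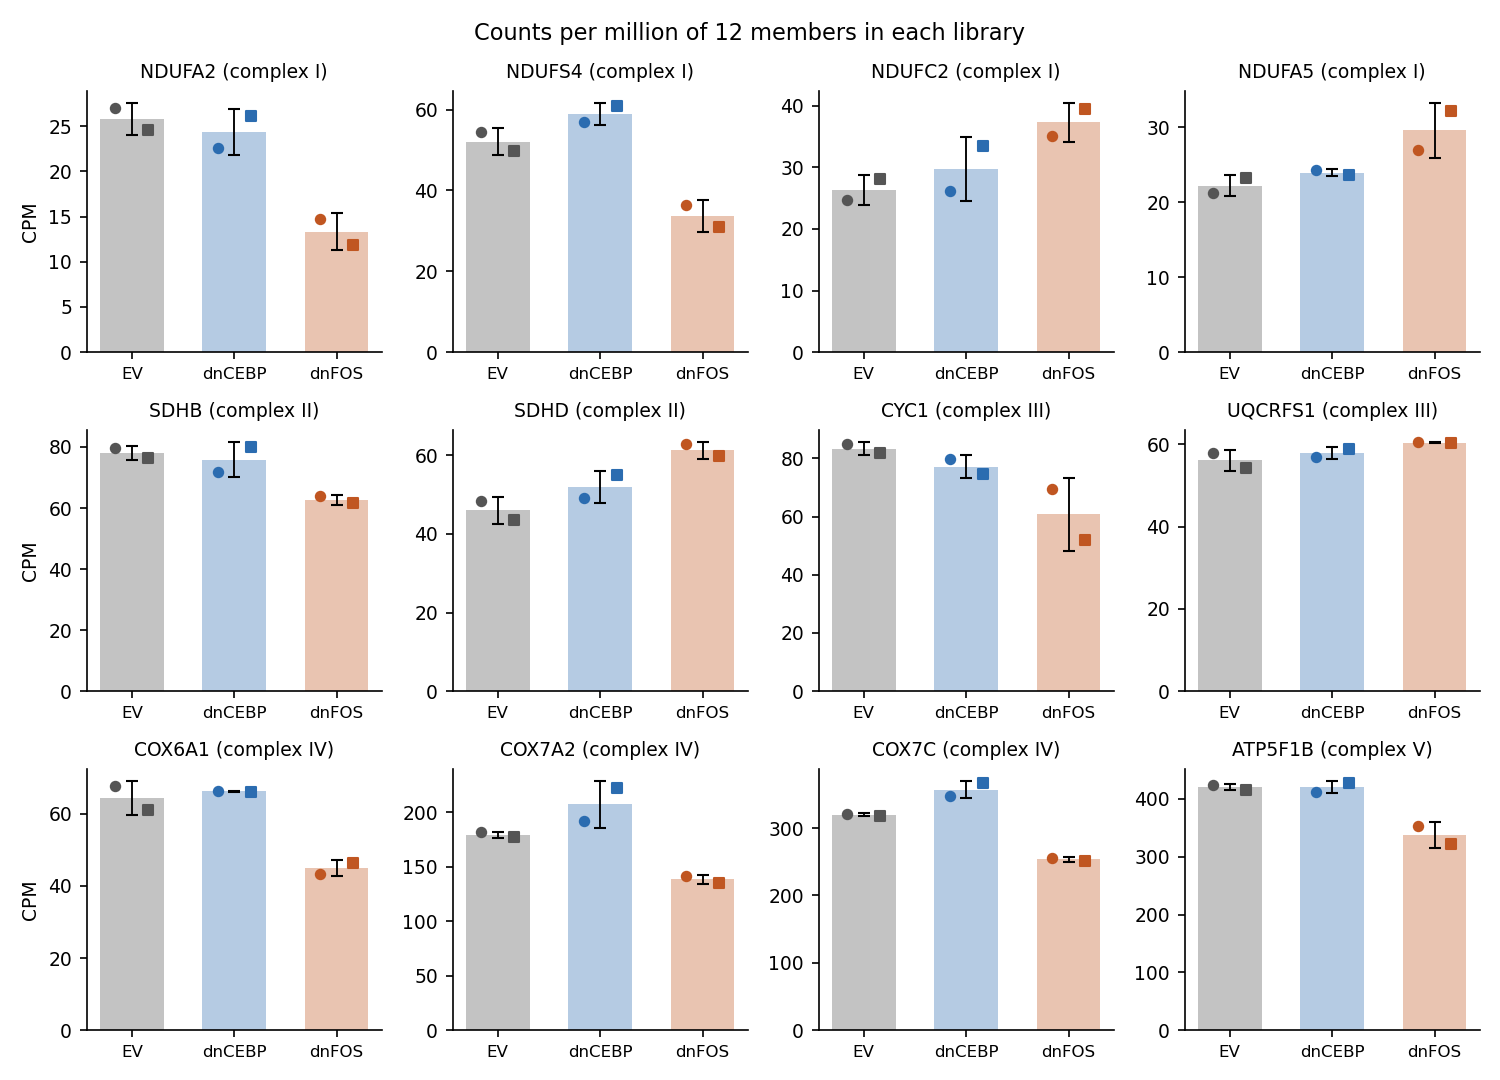
CPM of 12 genes in each library (circle, replicate 1, and square, replicate 2) with the mean (bar) and SD (error bar, n = 2) per group. NDUFA2, NDUFS4, COX6A1, COX7A2 and COX7C are lowest in both dnFOS libraries, whereas NDUFC2, NDUFA5 and SDHD are highest there. Both dnFOS libraries of UQCRFS1 lie above both EV libraries, a difference that was not called.

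The comparison of dnFOS with dnCEBP uses the same dnFOS libraries against the other peptide. Of the 83 genes, 29 (34.9%) were called lower and 1 higher, against 7.84% and 6.83% of all genes. The dnFOS libraries lay below both dnCEBP libraries for 48 genes and above them for 8, against 25.9% and 28.6% of all genes. The median was -0.19, beside 0.02 over all genes. Called lower were 10 of 39 in complex I, 1 of 4 in complex II, 4 of 10 in complex III, 7 of 11 in complex IV and 7 of 19 in complex V. The 10 include NDUFA4, whose product is found in complex IV. Under the settings that follow, fewer of all genes were called lower as well. With library totals alone the share was 4.64% of all genes, beside 15.7% of the 83. The count was 13 with library totals alone. It also fell without dnCEBP replicate 2 and without dnFOS replicate 2. As single libraries were left out, the median of the 83 genes ran from -0.26 to -0.14. Under all 17 other settings 8 genes were called: ATP5F1C, ATP5MC2, COX6A1, COX6B1, COX7A2, COX7C, NDUFA2 and NDUFS4.

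NDUFA2 and NDUFS4 led, at -0.85 ± 0.15 (adjusted p 0.000124) and -0.80 ± 0.11 (4.80e-06). The next were COX7A2 at -0.58 ± 0.088 (2.31e-05), COX6A1 at -0.56 ± 0.098 (0.000157), COX7C at -0.49 ± 0.083 (9.50e-05) and COX8A at -0.49 ± 0.11 (0.00210). The adjusted p of COX8A was 0.0653 without dnFOS replicate 2. NDUFA4, at 124 and 148 CPM in dnCEBP and 106 and 95.4 in dnFOS, was lower by 0.43 (SE 0.092, adjusted p 0.00161), and its adjusted p was 0.0678 without dnCEBP replicate 2. NDUFS5, the highest of complex I per kilobase, was lower by 0.31 (SE 0.091, adjusted p 0.0198), which was lost without dnCEBP replicate 2 (0.179) and dnFOS replicate 2 (0.116), with library totals alone and with the trend on GC and length removed (-0.21, adjusted p 0.140). SDHC was the 1 gene called higher, at 27.9 and 23.9 CPM in dnCEBP and 32.6 and 37.6 in dnFOS (0.43 ± 0.13, adjusted p 0.0204), and it was not called without dnCEBP replicate 2 (0.179) or dnFOS replicate 2 (0.183).

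GC content moved with the comparisons. GC content was taken from the longest transcript of each gene. Over all genes tested, the median log2 fold change of dnFOS against EV was 0.21 in the quintile with the least GC. It went through 0.09, 0.00 and -0.10 to -0.22 in the quintile with the most. The 83 genes gave medians of -0.09, -0.11, -0.16, -0.26 and -0.34 in the same quintiles, with 9, 22, 23, 15 and 14 genes, each below the value over all genes. Their median GC was 47.6%, beside 47.7% over all genes, and their median exon length 2475 bases, beside 4424.5. With the trend on GC and length removed, 23 were again called lower, 15 of them the same genes, beside 7.93% of all genes. Calls that were lost included ATP5ME, COX6B1, COX8A, CYC1, NDUFB7, NDUFS7 and UQCRC1, with log2 fold changes of -0.27 for COX8A, -0.16 for CYC1, -0.25 for NDUFB7 and -0.09 for COX6B1. Calls were gained for ATP5F1E, ATP5MC3, ATP5MG, ATP5PD, NDUFA4, NDUFB4, NDUFV2 and UQCRB. In dnFOS against dnCEBP the same removal lost the calls on ATP5MD, CYC1, NDUFB7 and NDUFS5.

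**Figure D5:**
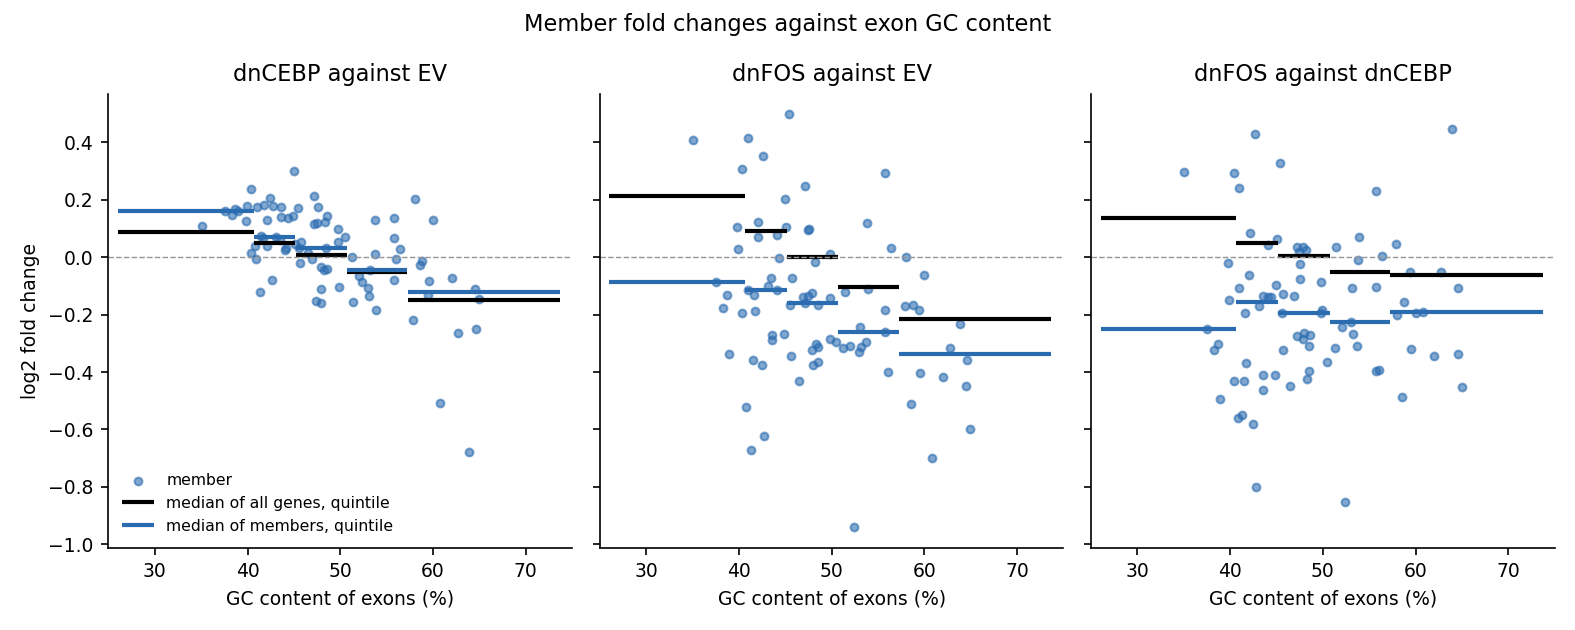
Log2 fold change of each of the 83 genes (points) against the GC content of its longest transcript, for the 3 comparisons. Bars give the median of all genes tested (black) and of these genes (blue) in each quintile of GC content. In dnFOS against EV and against dnCEBP the blue bars lie below the black ones in every quintile, and in dnCEBP against EV the bars lie close to each other.

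Some of these genes share exon bases with neighbours, and how the counting used strand is not given in the sources used here. Over 10% of the exon bases were shared for 29 of the 83, on the same strand for 14 and on the other strand for 16. Among the 23 called lower these were ATP5ME (61.6%, opposite MYL5), NDUFS7 (49.1%, opposite AC005329.1 and AC005329.3), COX8A (34.5%, same strand), NDUFB9 (21.0%, opposite strand), NDUFA2 (13.0%, opposite IK and TMCO6) and COX6A1 (13.0%, same strand). NDUFC2 shared 16.3% with its readthrough gene and SDHD 11.2% with AP002884.3. The values of these genes are uncertain to that extent.

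Genes around the chain were counted on lists. The 13 subunits encoded by mitochondrial DNA summed to 5918 and 6141 CPM in EV, 5479 and 4934 in dnCEBP, against 7816 and 8290 in dnFOS. In dnFOS against EV 11 of the 13 were called higher and none lower (median 0.54), beside 7.24% and 7.76% of all genes. In dnCEBP against EV 2 were called lower, MT-ND1 and MT-CYB (median -0.40), beside 0.448% of all genes. The latter count was 0 without EV replicate 2 or dnCEBP replicate 2 and reached 8 under other settings. Within complex IV, MT-CO2 and MT-CO3 rose by 0.38 ± 0.086 and 0.54 ± 0.082 in dnFOS (adjusted p 0.00316 and 4.05e-05), beside 8 nuclear subunits of the same complex called lower, while MT-CO1 was not called (0.23 ± 0.083, adjusted p 0.0573). The call on MT-CO2 was lost without EV replicate 1. The median of the mitochondrial list in dnFOS was positive under each of the other settings, with 7 to 13 genes called higher.

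Of 52 assembly factors, all tested, 3 were called higher and 1 lower in dnFOS against EV, with a median of 0.02. Over all genes the shares were 7.24% higher and 7.76% lower, and these stand beside the counts of the other lists as well. The assembly factors were thus not called more often than genes in general. LYRM7, a chaperone of the Rieske protein, rose by 0.65 ± 0.13 (adjusted p 0.00114), COX11, which delivers copper to complex IV, by 0.54 ± 0.12 (0.00261) and NUBPL, an iron-sulfur factor of complex I, by 0.53 ± 0.17 (0.0296). ECSIT, of complex I assembly, fell by 0.54 (SE 0.16, adjusted p 0.0178). Its call was lost under 5 of the 17 other settings, among them library totals alone and removal of the trend on GC and length. That on NUBPL was lost under 7, among them DESeq2 and the same removal. With library totals alone 9 of the 52 were called higher, beside 12.4% of all genes under that setting. With the replicate number as a block 5 were higher and 4 lower, beside 9.83% and 10.8% of all genes. Fewer of the 52 were called higher without dnFOS replicate 2. Of 13 tested tricarboxylic acid cycle genes 2 were lower, among them IDH3B (-0.36 ± 0.099, adjusted p 0.0123), and none higher (median -0.17), a count that ran from 0 to 5 under the other settings. IDH3B was not called without EV replicate 1 or dnFOS replicate 2, with library totals alone or with the trend on GC and length removed. Of 11 tested regulators of mitochondrial biogenesis 2 were higher, none lower (median 0.12). These were TFAM, which packs and transcribes mitochondrial DNA, at 76.8 and 67.7 CPM in EV and 102 and 104 in dnFOS (0.51 ± 0.090, adjusted p 0.000246), and GABPA, an ETS factor (0.46 ± 0.13, adjusted p 0.0157). Of 8 carriers and pores, cytochrome c, CYCS, was higher (0.51 ± 0.097, adjusted p 0.000564), and the nucleotide carrier SLC25A6 and the outer membrane channel VDAC2 were lower (-0.34 ± 0.093, adjusted p 0.0132, and -0.28 ± 0.089, adjusted p 0.0286). The calls on TFAM and CYCS held under all 17 other settings, while those on GABPA, SLC25A6 and VDAC2 were each lost both without EV replicate 1 and without dnFOS replicate 2. The calls on GABPA and SLC25A6 were also lost with the trend on GC and length removed, and those on SLC25A6 and VDAC2 with library totals alone. In dnCEBP against EV no gene of these 4 lists was called, beside 0.624% of all genes called higher and 0.448% called lower.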

How the data were processed

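RNA of 6 KO52 libraries had been prepared by the authors as total RNA depleted of ribosomal RNA and sequenced in pairs. The deposited values are raw read counts per gene, with no normalization. The submitters' processing notes name Trimmomatic, HISAT2, featureCounts, Subread and hg38. Versions, the annotation, strand use and the treatment of reads matching several genes are not given in the sources used here. Of 60612 IDs, 58394 matched GENCODE 29 on GRCh38, which gave symbols, coordinates, exon lengths and GC content. Exon length covers all annotated exons of a gene, and GC content is that of its longest transcript.

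Counts were filtered with filterByExpr (minimum count 10), scaled with TMM factors (0.956 to 1.05) and fitted with edgeR 4.0.16 in R 4.3.3, as a robust quasi-likelihood model with a mean per group over all 6 libraries (3 residual degrees of freedom). The common biological coefficient of variation was 0.0961. Tests were two-sided, with Benjamini-Hochberg adjustment over 15395 genes, and "±" is the standard error of the log2 fold change. CPM values use scaled library sizes. Intervals and floors cover counting error only.

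Sample titles gave the group and the replicate number. The genes and lists were chosen with earlier results of these data known. Named genes were core and catalytic subunits, isoform pairs and the highest and lowest per kilobase of each complex, plus up to 6 called rises and falls per comparison with means of at least 1 CPM and no overlap. Other genes were named after their values were seen. Alternatives were no filter, a filter at a mean of 1 CPM, DESeq2's size factors, library totals, 5 genes over 1% of a library left out of the scaling, only the 2 groups compared, DESeq2 1.42.0, limma-voom (limma 3.58.1), the replicate number as a block, removal of a smooth trend on GC and length (173 tested genes without either were kept as they were), both together, and each library left out. The scripts were tested on simulated counts. Values of some single genes are not reported here.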

Additional observations from a re-analysis of the deposited data

How the results depend on the processing

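Deviations from the group means of libraries with the same replicate number correlated little over genes. The values were 0.017 for EV and dnCEBP, 0.028 for EV and dnFOS and 0.088 for dnCEBP and dnFOS. Such values cannot exclude that libraries with the same number were handled together. With the replicate number as a block, calls over all genes in dnCEBP against EV rose from 96 higher and 69 lower to 232 and 256. With the replicate number as a block, the counts were 1 lower in dnCEBP against EV (ATP5F1D), 28 lower in dnFOS against EV, and 32 lower and 2 higher in dnFOS against dnCEBP. Over all genes the shares in the same order were 1.66% lower, 10.8% lower, and 10.2% lower and 9.34% higher.

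Library totals alone gave 12 lower in dnFOS against EV with a median of -0.072, and 13 lower and 4 higher in dnFOS against dnCEBP with a median of -0.072, while the medians of all genes became 0.10 and 0.14. Of all genes, 4.39% were then lower in dnFOS against EV, and 4.64% lower and 13.6% higher in dnFOS against dnCEBP. With the trend on GC and length removed, alone or with the replicate block, 3 were higher in dnFOS against dnCEBP. Those fits called 7.04% and 7.59% of all genes higher. Leaving out 1 library at a time gave 0 to 1 lower in dnCEBP against EV. It gave 1 to 4 higher and 7 to 26 lower in dnFOS against EV, with medians from -0.25 to -0.12. In dnFOS against dnCEBP it gave 0 to 1 higher and 12 to 28 lower, with medians from -0.26 to -0.14. Such a fit leaves 1 library in its group, which is assumed to vary like the others, and the cause of the lower counts was not tested. No called value of a named gene changed sign. Under the settings not named here, counts over the 83 genes stayed within 1.5 times the reported ones, but those of single complexes and of the pathway lists often did not. With all 6 libraries, the lower calls in dnFOS against EV ran from 5 to 9 in complex I, 5 to 9 in complex IV and 0 to 8 in complex V. At 2 libraries a group and the depth of dnFOS, small differences are not detectable, so a gene that was not called is not shown to be level.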
